A study of Mus musculus with 6 samples.

Results

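The 39 Hox genes of the mouse, every gene whose symbol is Hoxa, Hoxb, Hoxc or Hoxd followed by a number, were taken from the 51733 gene symbols counted in 6 RNA-seq libraries. They were grouped by paralogue number into 12 genes numbered 1 to 4, 11 numbered 5 to 8 and 16 numbered 9 to 13, and by cluster into 11 Hoxa, 10 Hoxb, 9 Hoxc and 9 Hoxd genes. The libraries hold stranded total RNA of Sox2-positive neural progenitor cells (NPCs), the dividing cells that give rise to neurons and glia, sorted from mouse neural tubes at embryonic day 13.5 (E13.5). There were 3 control libraries from wildtype embryos, called control 1 to 3, and 3 labelled as Ybx1 knockouts, called Ybx1-KO 1 to 3, all in the C57BL/6 strain. The null allele was Ybx1 tm1Ley, a germline deletion present in every tissue of the embryo, and the cells were sorted by a Sox2-eGFP reporter. Whether the libraries came from separate embryos was not stated, so the p-values below measure the spread between these samples, part of which may be technical.

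Hox genes encode homeodomain transcription factors that give cells their position along the head-to-tail axis. In each cluster the genes lie in the order of their numbers, and low numbers are expressed up to the hindbrain while high numbers are confined to the posterior spinal cord, so that the set of Hox genes a neural progenitor expresses reads out its axial level. The forebrain and midbrain express none of them. Their repressed state in anterior cells is held by Polycomb complexes, and retinoic acid and Cdx factors activate them during axis formation.

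Upstream sequences of 3 members are shown for orientation, Hoxb1 and Hoxa2 because their level was compared below as hindbrain genes and Hoxd10 as a posterior gene with a difference near 0, all chosen after their values were seen. They are from RefSeq (build GRCm38.p6), read 5′ to 3′ on the gene's strand, and end at or shortly before the annotated start of the gene. Capitals mark matches, on either strand, to TGATNNAT, the core of sites bound by Hox factors with their Pbx partners, and to ATTGG, the core of the Y-box after which Ybx1 is named.
Hoxb1, chr11:96365508-96365751, plus strand: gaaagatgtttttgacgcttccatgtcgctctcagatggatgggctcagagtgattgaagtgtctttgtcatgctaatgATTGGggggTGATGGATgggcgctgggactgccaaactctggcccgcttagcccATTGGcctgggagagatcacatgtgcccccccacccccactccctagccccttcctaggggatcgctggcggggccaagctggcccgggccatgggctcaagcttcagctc
Hoxa2, chr6:52164832-52165081, minus strand: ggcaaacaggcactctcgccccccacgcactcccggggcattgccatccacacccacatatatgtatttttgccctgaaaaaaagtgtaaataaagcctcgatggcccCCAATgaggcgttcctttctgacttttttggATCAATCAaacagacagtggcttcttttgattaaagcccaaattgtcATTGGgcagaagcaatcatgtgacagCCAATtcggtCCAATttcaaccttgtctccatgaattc
Hoxd10, chr2:74691641-74691890, plus strand: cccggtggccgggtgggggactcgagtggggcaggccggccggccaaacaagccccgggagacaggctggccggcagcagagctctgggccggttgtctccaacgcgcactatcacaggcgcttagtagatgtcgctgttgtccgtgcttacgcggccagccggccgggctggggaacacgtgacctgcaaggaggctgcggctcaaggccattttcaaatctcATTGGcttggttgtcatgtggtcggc
In the Hoxb1 sequence the Hox-Pbx match began 156 bases before its end, next to an ATTGG match at 165 bases, and the Hoxa2 sequence held 1 Hox-Pbx match and 4 ATTGG matches, none of them overlapping. Hoxd10 held no Hox-Pbx match and 1 ATTGG match. Of the 24 promoter windows available for 22 Hox genes, 4 held the Hox-Pbx letters, against 8.85% of all 32851 windows, and those 4 belonged to Hoxa2, Hoxb1, Hoxb8 and Hoxd11. The ATTGG letters stood in 62.5% of the Hox windows and in 37.4% of all windows. These are matches of letters, with no measurement of binding behind them.

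The libraries differed in ways that touch every value below. The control libraries held 20841990 to 23883542 counts on genes and the Ybx1-KO libraries 4743279 to 13321952, and 3 counts, the smallest amount taken as measurable, corresponded to 0.126 to 0.632 CPM, the usual unit of counts scaled to a common library total on genes. In Ybx1-KO 3 only 7.22% of read pairs fell on genes, and 1944 olfactory, vomeronasal and taste receptor genes, which NPCs do not use, summed to 4691 CPM, against 25.5 to 98.3 CPM in the other 5 libraries. Ybx1 itself stood at 239, 531 and 306 CPM in the controls and at 126, 55.3 and 9.66 CPM in Ybx1-KO 1, 2 and 3. Ybx1-KO 1 thus held 1112 counts of Ybx1, and where they lie relative to the deleted part of the gene cannot be read from counts per gene, so these values check the label only in part. Its log2 fold change was -2.49 (SE 0.675, adjusted p = 0.301 Benjamini-Hochberg, edgeR quasi-likelihood test), and its groups did not overlap. The receptor sums and the limit of 3 counts above use unscaled library totals, while all other CPM values are scaled by TMM, the trimmed mean of M values. On that scale 3 counts in Ybx1-KO 3 equal 0.426 CPM. Levels of different genes are compared only as FPKM, counts scaled to exon length and to the library's counts on genes.

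Hox RNA was present in all 6 libraries and lowest in control 1. The 39 genes summed to 130 CPM in control 1, 1067 in control 2 and 325 in control 3, and to 1334, 1384 and 677 CPM in Ybx1-KO 1, 2 and 3. Control NPCs averaged 507 ± 494 CPM and Ybx1-KO NPCs 1132 ± 395 CPM (SD, n = 3 each), a ratio of 2.23, or 4.97 without control 2. Control 2 was the control with the highest sum, so leaving it out can only raise this ratio, here and in the bands below. In CPM, control 2 lay within the range of the Ybx1-KO libraries, and the other control libraries lay below all of them. By summed FPKM the controls stood at 50.4, 372 and 123 and Ybx1-KO 1, 2 and 3 at 540.2, 391 and 396, so that the groups did not overlap and Ybx1-KO 1, not Ybx1-KO 2, was the highest. In bulk RNA, more cells of posterior identity and more Hox RNA per cell cannot be told apart. The mean CPM was higher in Ybx1-KO at 37 of the 39 genes, the exceptions being Hoxc12 and Hoxd10, whose fitted differences were near 0 and turned positive under other scalings.

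**Figure D1:**
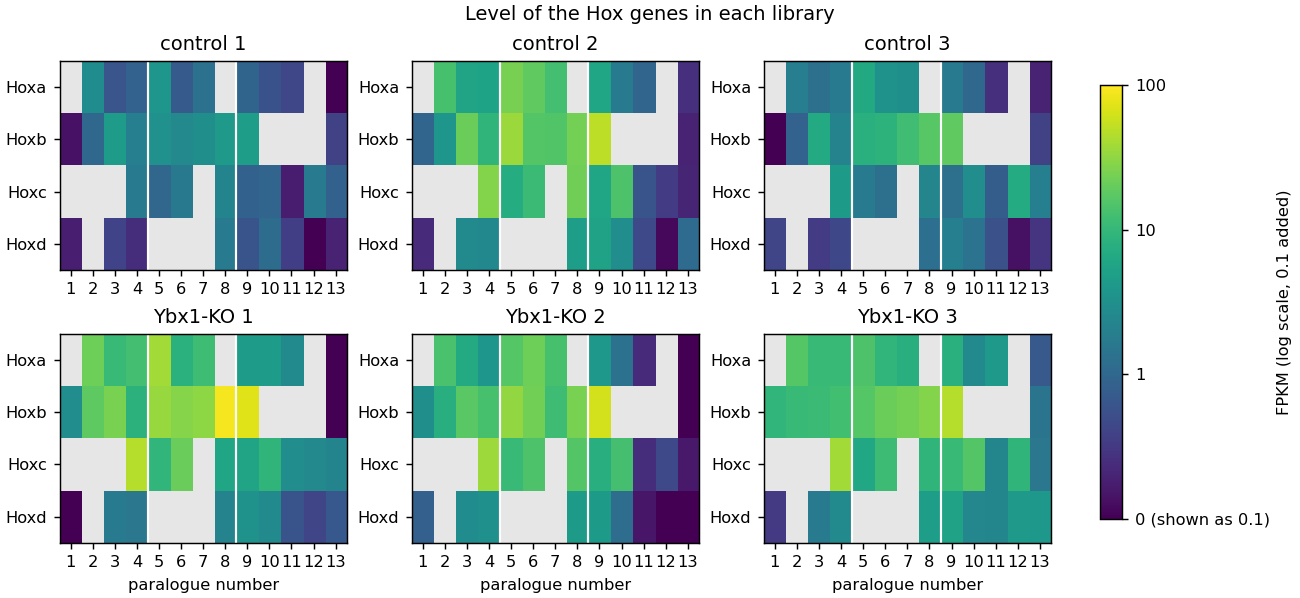
Level of each Hox gene in each library, with paralogue number on the horizontal axis, cluster on the vertical axis and colour for FPKM on a log scale; grey cells are positions with no gene or, at 1 position, a gene not shown, and white lines separate numbers 1 to 4, 5 to 8 and 9 to 13. Control 1 and control 3 are dark over most positions, control 2 resembles Ybx1-KO 2, and Hoxb9 is the brightest position in every library except Ybx1-KO 1, where it is Hoxb8.

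The groups were compared across 21330 genes, those whose mean FPKM exceeded 1 in at least 1 group. A gene was called when its Benjamini-Hochberg adjusted p from edgeR's quasi-likelihood fit was under 0.05 and its fold change over 1.5. By that rule 0 of the 39 Hox genes and 0.0% of all genes were called, in either direction. At an unadjusted p below 0.05, 12 Hox genes were higher in Ybx1-KO and 0 lower, beside 6.96% of all genes tested that were higher and 4.26% that were lower. DESeq2 called Hoxb2, beside 0.553% of all genes called higher, and the fit without the FPKM filter called Hoxb1 and Hoxb2, beside 0.264%. With libraries summed by the number in their titles, Hoxb2 was called, beside 0.272%. The limma-voom fit called no member. Of the 39 genes, 35 passed the filter, 27 of them in both groups, 8 through the Ybx1-KO group alone and 0 through the control group alone. Of the 7234 genes that passed through Ybx1-KO alone, 7148 were higher there, so the direction of those 8 was largely set by the filter. Hoxb1 and Hoxd12, counted in the 12 above, are among those 8. Among the 27 that passed in both groups, 25 were higher in Ybx1-KO, and their median log2 fold change was 0.89, whereas the 13145 genes that passed in both groups had a median of -0.07. Over the 35 tested the median was 1.19, from -0.08 for Hoxc12 to 5.48 for Hoxd12, and the median over all genes tested was 0.31. Without control 1 the Hox median was 0.68, and without control 2 it was 2.39.

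In TMM-scaled CPM the groups did not overlap at 3 of the 39 genes, Hoxb1, Hoxb2 and Hoxa3, all higher in Ybx1-KO. Of all genes tested, 4.99% did not overlap in that direction and 8.16% in the other. All 3 have low numbers, but beside those shares 3 genes are too few to read a pattern by number. Hoxb1 also passed the filter through the Ybx1-KO group alone. The overlap at most other members came from 1 library, control 2, which was above at least 1 Ybx1-KO library at 35 of the 39 genes. Without it, the Ybx1-KO libraries lay above the remaining controls at 29 genes, beside 8.46% of all genes, and these were 11 of the 12 genes numbered 1 to 4, all 11 numbered 5 to 8 and 7 of the 16 numbered 9 to 13. In the fit without control 2, 6 Hox genes were called higher, namely Hoxa2, Hoxa3, Hoxb1, Hoxb2, Hoxc4 and Hoxc6, beside 0.136% of all genes. Leaving out control 1, control 3 or Ybx1-KO 1 called 0 members. Without Ybx1-KO 2 the fit called Hoxb2, beside 1.33% of all genes called higher. Without Ybx1-KO 3 it called Hoxb2 as well, beside 0.147% called higher. The members above without overlap numbered 5, 7 and 11 without Ybx1-KO 1, 2 and 3, beside 11.6, 10.6 and 10.3% of all genes, and without Ybx1-KO 3 Hoxb13 was below without overlap.

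**Figure D2:**
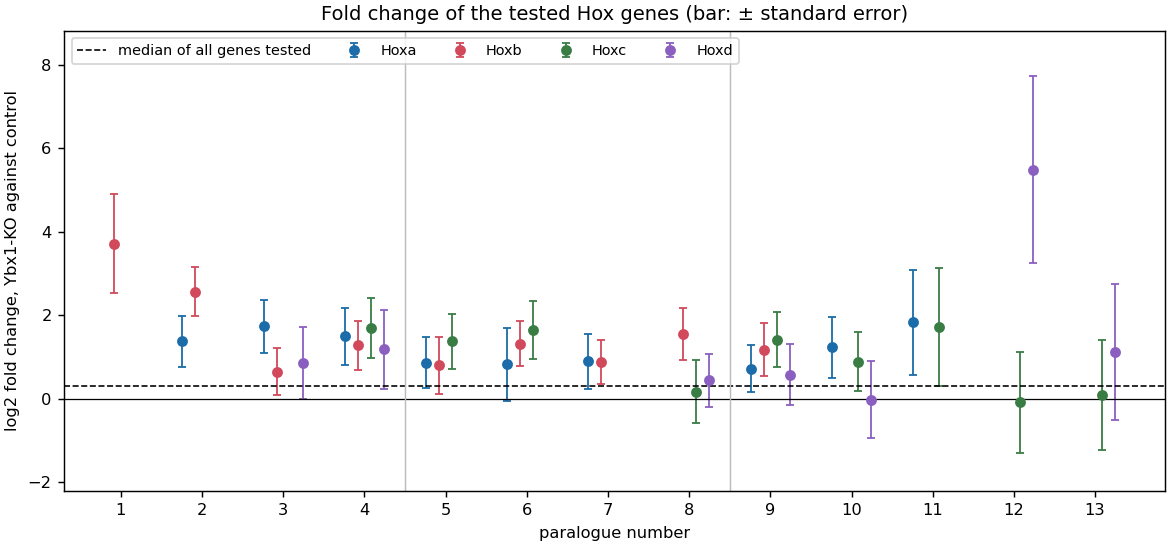
Log2 fold change of Ybx1-KO against control for the tested Hox genes, 1 of which is not shown, by paralogue number, coloured by cluster, with bars of 1 standard error and a dashed line at the median of all genes tested (0.31). Hoxb1 and Hoxb2 stand highest among the numbers 1 to 10, Hoxd12 rests on few counts, and most members lie above the dashed line.

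The genes numbered 1 to 4 pattern the hindbrain and the most anterior spinal cord. Their summed level was 42.3, 317 and 70.5 CPM in control 1, 2 and 3 and 429, 458 and 244 CPM in Ybx1-KO 1, 2 and 3, a ratio of means of 2.63, or 6.69 without control 2. Of the 12 genes, 11 were tested, all 11 were higher in Ybx1-KO, 7 of them at an unadjusted p below 0.05, and the median log2 fold change was 1.37. Among them, 8 passed the filter in both groups, and their median was 1.43. Hoxb1 is among the 7 but not among these 8.

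Hoxb2, which acts in segments of the hindbrain, had the smallest adjusted p of all members. It stood at 3.17, 14.2 and 3.00 CPM in control 1, 2 and 3 and at 59.6, 36.1 and 24.9 CPM in Ybx1-KO 1, 2 and 3. Every Ybx1-KO library was above every control library, with means of 6.80 ± 6.44 and 40.2 ± 17.7 CPM (SD, n = 3 each). The log2 fold change was 2.56 (SE 0.583, adjusted p = 0.208 Benjamini-Hochberg, edgeR quasi-likelihood test, two-sided exact permutation p = 0.1, the smallest that 3 against 3 allow). Hoxb2 shares 27.3% of its exon bases with the opposite-strand RNA Hoxb3os, whose level was also higher in Ybx1-KO than in control on average, and the strand setting of the counting was not given in the sources used here.

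Hoxb1, which specifies the fourth rhombomere of the hindbrain and activates its own promoter, was near the limit of measurement in control NPCs. Its counts were 2, 47 and 0 in control 1, 2 and 3 and 57, 93 and 102 in Ybx1-KO 1, 2 and 3, or 0.0959, 2.20 and 0 against 6.46, 9.66 and 14.5 CPM. The groups did not overlap, and no other gene is annotated over its exons. The log2 fold change was 3.72 (SE 1.18, adjusted p = 0.388 Benjamini-Hochberg, edgeR quasi-likelihood test), and it passed the filter through the Ybx1-KO group alone. Hoxb1 was highest in Ybx1-KO 3, the library with the raised receptor signal, and the other 2 Ybx1-KO libraries were also above all controls.

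Hoxa3, which acts in the posterior hindbrain and in pharyngeal arches, stood at 3.12, 36.8 and 7.72 CPM in the controls and at 59.8, 56.7 and 42.2 CPM in Ybx1-KO 1, 2 and 3. Its lowest Ybx1-KO library was above control 2 by a small margin, and the log2 fold change was 1.73 (SE 0.631, adjusted p = 0.430 Benjamini-Hochberg, edgeR quasi-likelihood test). Hoxa3 shares 27.1% of its exon bases with other RNAs, 25.4% with RNAs of the opposite strand, so its value is uncertain in the same way as that of Hoxb2. Hoxa2, the most anteriorly expressed Hox gene and the only one expressed in the second rhombomere, stood at 4.89, 26.3 and 3.51 CPM in the controls and at 37.0, 33.6 and 19.5 CPM in Ybx1-KO. In CPM, Ybx1-KO 3 was below control 2, so the groups overlapped on that scale (log2 fold change 1.37, SE 0.612).

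Hoxc4, expressed from the posterior hindbrain into the spinal cord, had the highest level of this band per length, with FPKM of 1.63, 27.8 and 4.22 in the controls and 46.0, 36.6 and 37.9 in Ybx1-KO 1, 2 and 3. In CPM it stood at 4.17, 79.7 and 11.9 against 114, 130 and 65.6, and only Ybx1-KO 3 was below control 2. Hoxb3 had the smallest fold change of the band, 0.65 (SE 0.561), with 18.8, 99.0 and 31.6 CPM in the controls and 102, 101 and 31.7 CPM in Ybx1-KO. Here control 2 was close to the higher Ybx1-KO libraries and control 3 to Ybx1-KO 3. Hoxb3 shares 52.9% of its exon bases with Hoxb3os, so this value is uncertain.

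Hoxd1 was not tested, with 0 to 18 counts. Hoxa4, Hoxb4, Hoxd3 and Hoxd4 had log2 fold changes of 0.86 to 1.49, and Hoxd3 and Hoxd4 share 62.8% and 52.3% of their exon bases with other genes, mainly each other.

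**Figure D3:**
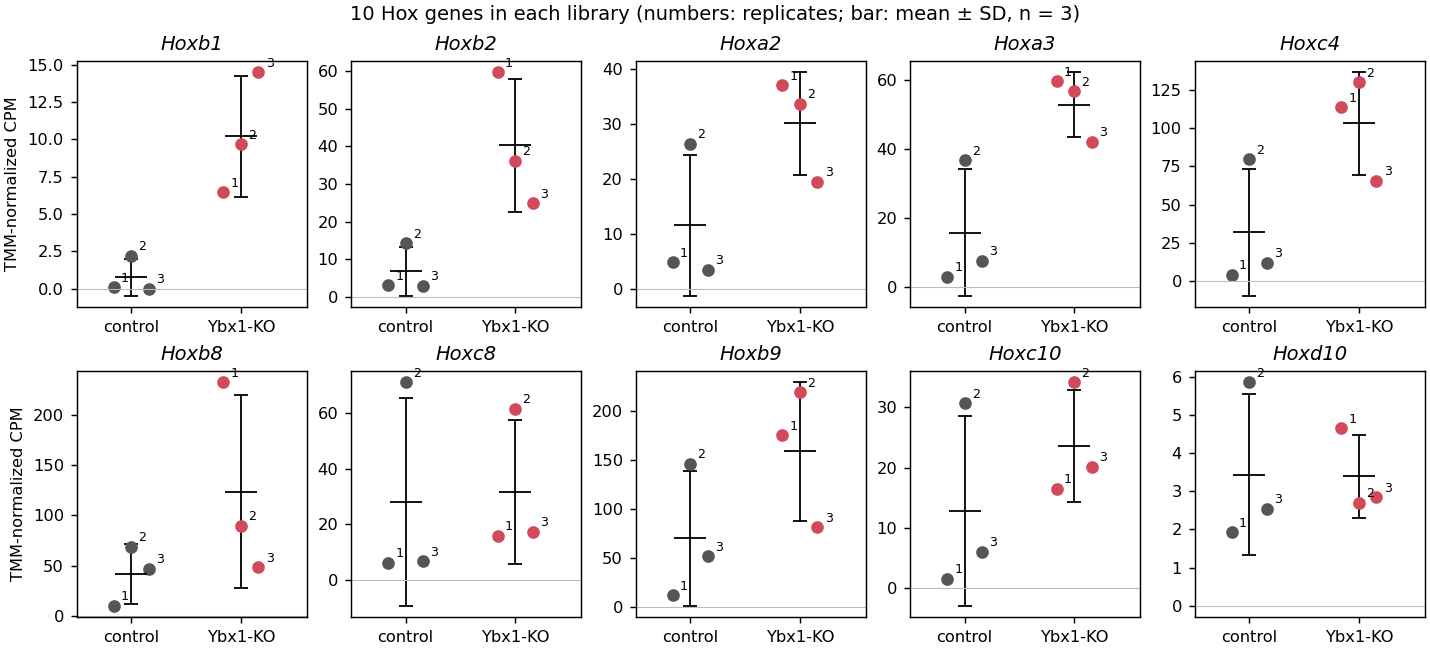
TMM-normalized CPM of 10 Hox genes in each library, with points for the libraries numbered by replicate and bars for the mean ± SD (n = 3). The groups are apart for Hoxb1, Hoxb2 and Hoxa3, and in the other panels control 2 lies among or above the Ybx1-KO libraries; lower error bars that pass 0 come from the spread of the controls.

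The genes numbered 5 to 8 mark the cervical and thoracic spinal cord. They summed to 56.8, 487 and 155 CPM in the controls and to 628, 593 and 227 CPM in Ybx1-KO 1, 2 and 3, a ratio of means of 2.07, or 4.56 without control 2. All 11 were tested and all 11 were higher in Ybx1-KO, 3 of them at an unadjusted p below 0.05, and the median log2 fold change was 0.89. In TMM-scaled CPM no member of this band was free of overlap between the groups. With total counts alone, and in FPKM, Hoxb6, Hoxb8 and Hoxc6 were above without overlap, beside 6.00% of all genes with total counts alone. The margins in FPKM were small at Hoxb8, 23.3 in control 2 against 24.7 in Ybx1-KO 2, and at Hoxc6, 10.9 in control 2 against 11.4 in Ybx1-KO 3.

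Hoxb8, a gene of the cervical and thoracic cord, had the smallest p of the band and stood at 10.4, 68.8 and 47.1 CPM in the controls and at 232, 89.9 and 48.9 CPM in Ybx1-KO. Ybx1-KO 1 was far above the rest and Ybx1-KO 3 was below control 2 (log2 fold change 1.55, SE 0.617, adjusted p = 0.438 Benjamini-Hochberg, edgeR quasi-likelihood test). Hoxb6 stood at 4.94, 34.8 and 18.4 CPM in the controls and 54.2, 62.9 and 28.1 CPM in Ybx1-KO (1.32, SE 0.545 on the log2 scale), and the groups overlapped only through control 2 and Ybx1-KO 3. The same held for Hoxc6, a limb-level gene that takes part in forming the lateral motor columns, with 3.65, 29.3 and 3.15 against 46.9, 47.7 and 18.5 CPM.

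Hoxb5 and Hoxa5, the latter of which contributes to cervical motor neurons that drive breathing, had smaller fold changes than Hoxb8 and Hoxb6. Hoxb5 stood at 8.83, 109 and 23.9 CPM in the controls and at 92.2, 125 and 30.1 CPM in Ybx1-KO (log2 fold change 0.80, SE 0.681). Hoxa5 stood at 6.91, 51.1 and 13.6 CPM in the controls and at 69.4, 42.3 and 18.2 CPM in Ybx1-KO (0.86, SE 0.609). In both genes control 2 was above 1 or more Ybx1-KO libraries.

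Hoxc8, which acts in brachial motor neurons, had the smallest difference of the band and was singled out after its values were seen. It stood at 6.19, 70.9 and 6.86 CPM in the controls and at 15.9, 61.5 and 17.3 CPM in Ybx1-KO, so that control 2 was the highest library of all. The log2 fold change was 0.18 (SE 0.748), below the median of all genes tested, and its sign turned when control 1, control 3 or Ybx1-KO 2 was left out. The remaining members of the band, Hoxa6, Hoxa7, Hoxb7, Hoxc5 and Hoxd8, had log2 fold changes of 0.44 to 1.38.

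The genes numbered 9 to 13 mark the thoracic, lumbar and sacral cord and, outside the nervous system, the limb and tail. They summed to 31.0, 263 and 99.8 CPM in the controls and to 277, 332 and 205 CPM in Ybx1-KO, a ratio of means of 2.07, or 4.15 without control 2. Of the 16, 13 were tested, 11 were higher and 2 lower in Ybx1-KO, 2 had an unadjusted p below 0.05, and the median log2 fold change was 1.12. The filter was passed by 5 of these 13 through Ybx1-KO alone, namely Hoxa11, Hoxc11, Hoxc13, Hoxd12 and Hoxd13. Of these 5, Hoxd12 is also among the 2 with an unadjusted p below 0.05. Among the 8 that passed in both groups, 6 were higher, and their median was 0.80. Most of the sum came from the 7 genes numbered 9 and 10, at 24.7, 254 and 81.3 CPM in the controls and 254, 330 and 165 CPM in Ybx1-KO.

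Hoxb9, a gene of the thoracic cord, had the highest mean FPKM of all 39 members, 42.2 over the 6 libraries. It stood at 12.0, 146 and 51.9 CPM in the controls and at 175.3, 219 and 81.3 CPM in Ybx1-KO, and Ybx1-KO 3 was below control 2 (log2 fold change 1.18, SE 0.641, adjusted p = 0.451 Benjamini-Hochberg, edgeR quasi-likelihood test). Hoxc9, which sets the boundary between brachial and thoracic motor neurons, stood at 1.82, 16.01 and 3.15 CPM in the controls and 12.8, 26.1 and 17.1 CPM in Ybx1-KO (1.41, SE 0.662 on the log2 scale). Only Ybx1-KO 1 was below control 2. Hoxc10, a lumbar gene, stood at 1.63, 30.7 and 6.05 CPM in the controls and 16.6, 34.2 and 20.2 CPM in Ybx1-KO (0.88, SE 0.707), with control 2 above 2 of the 3 Ybx1-KO libraries.

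Hoxd10, which specifies lumbar motor neurons, showed no detectable difference, at 1.92, 5.85 and 2.54 CPM in the controls and 4.65, 2.70 and 2.84 CPM in Ybx1-KO (log2 fold change -0.02, SE 0.932). Its standard error leaves room for a difference of either sign, and its sign changed under other scalings.

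The 9 genes numbered 11 to 13 were low and followed another order of libraries than the rest. They summed to 6.38, 9.13 and 18.5 CPM in the controls and to 22.9, 1.87 and 40.8 CPM in Ybx1-KO 1, 2 and 3, so that Ybx1-KO 2 had the least of these. Without Ybx1-KO 3, the mean of 12.4 CPM lay near the control mean of 11.3 CPM. Hoxd12, with the largest fold change of all members, had 0, 1 and 2 counts in the controls and 7, 0 and 49 in Ybx1-KO, nearly all of them in the library with the raised receptor signal, so its fitted fold change rests on that library. Hoxc12 stood at 1.63, 0.281 and 7.82 CPM in the controls and 2.49, 0.519 and 6.25 CPM in Ybx1-KO, and Hoxc13 at 1.87, 0.281 and 5.08 against 5.10, 0.208 and 2.42 CPM. Both were lowest in control 2 and Ybx1-KO 2. Hoxa13, Hoxb13 and Hoxd11 were not tested, with 0 to 45 counts in any library.

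The share of each band in the Hox counts differed less between libraries than the sums. Genes 1 to 4 held 32.5% of the Hox counts in control 1 (95% Clopper-Pearson interval 30.7 to 34.3%), 29.7% in control 2 (29.1 to 30.3%) and 21.7% in control 3 (20.7 to 22.7%). In Ybx1-KO 1, 2 and 3 they held 32.2% (31.3 to 33.0%), 33.1% (32.3 to 33.9%) and 36.0% (34.6 to 37.4%). The means were 28.0% ± 5.61 in control and 33.8% ± 2.01 in Ybx1-KO (SD, n = 3 each), and the groups overlapped, since control 1 was above Ybx1-KO 1. As a share of the summed FPKM, genes 1 to 4 held 26.8, 24.8 and 16.2% in the controls and 27.4, 28.1 and 31.5% in Ybx1-KO, with no overlap, although control 1 and Ybx1-KO 1 lay close together. These intervals cover counting error only.

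Genes 5 to 8 held 43.7, 45.7 and 47.6% of the Hox counts in control 1, 2 and 3 and 47.1, 42.9 and 33.6% in Ybx1-KO 1, 2 and 3. Genes 9 to 13 held 23.8, 24.6 and 30.7% in the controls and 20.8, 24.01 and 30.4% in Ybx1-KO. Both ranges overlapped, and the mean share of genes 9 to 13 was 26.4% ± 3.75 in control and 25.0% ± 4.88 in Ybx1-KO. The paralogue number averaged with FPKM as weights was 6.45, 6.29 and 7.13 in the controls and 6.22, 6.12 and 6.46 in Ybx1-KO, so the sums differed between libraries by much more than this centre of the axial code.

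How far posterior expression reached was read as the highest number in each cluster with at least 1 FPKM and 3 counts. In cluster a it was Hoxa7 in control 1, Hoxa10 in control 2 and Hoxa9 in control 3, and Hoxa11, Hoxa10 and Hoxa11 in Ybx1-KO 1, 2 and 3. In cluster b it was Hoxb9 in every library but Ybx1-KO 3, which reached Hoxb13 at 1.34 FPKM and only Hoxb9 once a background estimated on the receptor genes was subtracted. Cluster c reached Hoxc12, Hoxc10 and Hoxc13 in the controls and Hoxc13, Hoxc10 and Hoxc13 in Ybx1-KO, where Ybx1-KO 3 reached Hoxc12 once the background was subtracted. Cluster d reached Hoxd10, Hoxd13 and Hoxd10 in the controls and Hoxd10, Hoxd10 and Hoxd13 in Ybx1-KO. In no cluster did all Ybx1-KO libraries reach farther than all controls.

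The FPKM behind these limits were often just past 1. Hoxa7 stood at 1.23, 12.7 and 3.06 FPKM in the controls and 11.6, 13.4 and 7.77 FPKM in Ybx1-KO, and Hoxa9 at 0.834, 5.85 and 1.63 FPKM in the controls and 4.48, 3.87 and 8.01 FPKM in Ybx1-KO. Hoxa10 stood at 0.470, 1.65 and 0.907 FPKM in the controls and 4.51, 1.24 and 2.58 FPKM in Ybx1-KO. Hoxa7 and Hoxa10 were thus near 1 FPKM in the control or Ybx1-KO library whose limit they set. Hoxb13 stood at 0.283, 0.0949 and 0.294 FPKM in the controls and 0, 0 and 1.34 FPKM in Ybx1-KO, past 1 in Ybx1-KO 3 alone, and Hoxd13 at 0.0966, 1.03 and 0.187 FPKM in the controls and 0.570, 0 and 3.91 FPKM in Ybx1-KO, barely past 1 in control 2. Hoxa11 was clearer, at 0.336, 0.860 and 0.162 FPKM in the controls against 2.53, 0.131 and 3.96 FPKM in Ybx1-KO, but part of its exons lies under Hoxa11os.

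Counted over the clusters, 16, 29 and 25 of the 39 genes reached 1 FPKM in control 1, 2 and 3, and 32, 29 and 37 in Ybx1-KO 1, 2 and 3. For Ybx1-KO 3 the number was 34 after the background was subtracted, and for the others it did not move. Of the 9 genes numbered 11 to 13, 1, 1 and 2 reached 1 FPKM in the controls and 4, 0 and 8 in Ybx1-KO. The number reached also follows depth and background, which differ between these libraries.

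By cluster, the median log2 fold change was 1.28 for the 10 tested Hoxa genes, 1.28 for the 9 Hoxb genes, 1.38 for the 9 Hoxc genes and 0.86 for the 7 Hoxd genes. Cluster b held 49.3 to 62.4% of the Hox counts in the controls and 45.3 to 59.0% in Ybx1-KO, and cluster d the least, 4.92 to 8.15% and 2.37 to 7.18%.

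The libraries were also compared 1 by 1. Control 2 was the highest control at 32 of the 39 genes and at all 11 genes numbered 5 to 8, and control 1 the lowest control at 29. Over the 39 genes, log2(FPKM + 0.1) of control 2 correlated most with Ybx1-KO 2 (Pearson r = 0.941, Spearman rho = 0.962, across genes that are not independent), and less with control 1 (0.797) and control 3 (0.743). Control 1 and control 3 correlated at 0.896, and Ybx1-KO 1 and 3 at 0.898. By its Hox profile control 2 thus lay nearer to a library of the other genotype than to the libraries of its own.

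**Figure D4:**
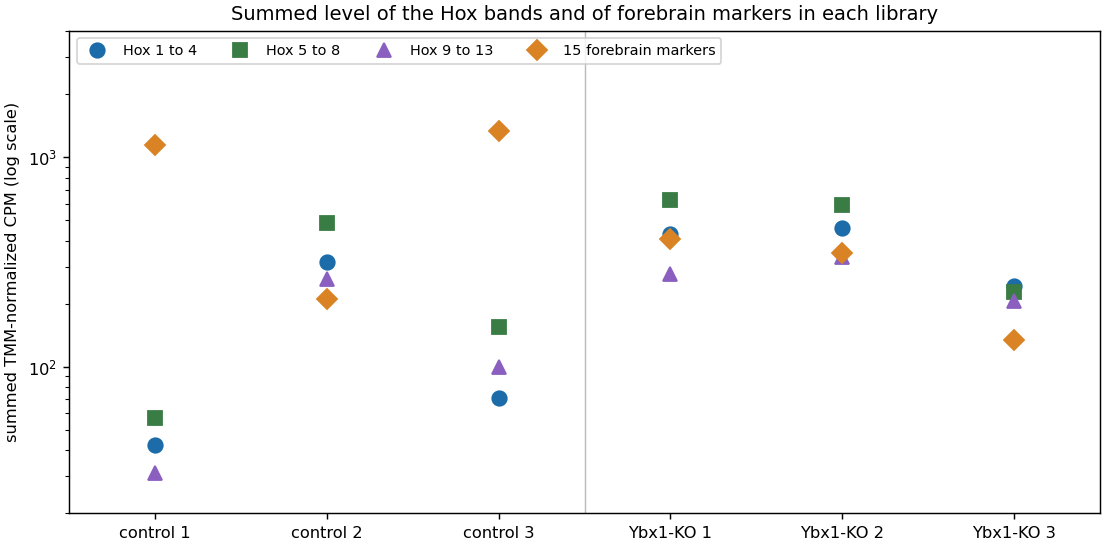
Summed TMM-normalized CPM, on a log axis, of the Hox genes numbered 1 to 4, 5 to 8 and 9 to 13 and of 15 forebrain marker genes in each of the 6 libraries. The forebrain markers lie above all Hox bands in control 1 and control 3 and below all of them in control 2 and Ybx1-KO 3. Within the control group the forebrain markers were thus low where the Hox genes were high. In CPM, both were lower in Ybx1-KO 3 than in the other Ybx1-KO libraries. In summed FPKM, Ybx1-KO 3 was above Ybx1-KO 2 for genes 1 to 4 (125 against 110) and 9 to 13 (120 against 93.5). For genes 5 to 8 it was below (151 against 188).

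Markers of the forebrain, which expresses no Hox gene, were lowest among the controls in control 2, the control library with the most Hox RNA in both CPM and FPKM. The 15 markers summed to 1138, 211 and 1342 CPM in control 1, 2 and 3 and to 407, 349 and 134 CPM in Ybx1-KO 1, 2 and 3. Emx1 was at 0 counts in Ybx1-KO 1. Of the 14 tested, 4 were higher and 10 lower in Ybx1-KO, 0 were called, and the median log2 fold change was -1.18. The amount of forebrain in each sorted sample was not recorded in the sources used here, and its part in the Hox differences was not tested.

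Markers of other regions and tissues were read the same way. The 8 midbrain and isthmus markers summed to 115 to 334 CPM in the controls and 167 to 353 CPM in Ybx1-KO, and the 6 motor neuron markers to 13.2 to 45.7 and 40.8 to 58.7 CPM. The 6 neural crest and Schwann cell markers summed to 182 to 430 CPM in the controls and 197 to 518 CPM in Ybx1-KO. The 7 paraxial mesoderm markers summed to 22.3, 63.9 and 30.7 CPM in the controls and 132, 119 and 51.7 CPM in Ybx1-KO, in every library but control 1 mostly from Uncx, which parts of the nervous system also express, while Myf5 and Myod1, which define muscle progenitors, had 0 to 30 counts. The 5 limb and genital field markers summed to 38.3, 77.7 and 29.1 CPM in the controls and 61.7, 37.3 and 45.5 CPM in Ybx1-KO, mostly from Shox2. The 9 mesenchyme markers went the other way, at 204 to 1092 CPM in the controls and 111 to 180 CPM in Ybx1-KO. The 8 neural progenitor markers summed to 1378 to 1586 CPM in the controls and 1065 to 1803 CPM in Ybx1-KO, with Sox2 between 17.5 and 50.6 CPM. The 8 neuron markers summed to 3070 to 4625 CPM in the controls and 1267 to 3402 CPM in Ybx1-KO, above the progenitor markers in every library. With no library of unsorted cells, these sums cannot check the sort. The 4 endothelium markers summed to 39.8, 20.6 and 22.1 CPM in the controls and 9.41, 13.9 and 52.1 CPM in Ybx1-KO, and the 8 erythroid markers to 479.8 to 1169.7 and 164 to 953 CPM. Among the erythroid markers, the adult globin Hbb-bs stood at 603, 16.3 and 191 CPM in the controls and 20.3, 6.33 and 4.97 CPM in Ybx1-KO. The embryonic globin Hbb-bh1 stood at 0.815, 16.4 and 0.711 CPM in the controls and 52.4, 20.7 and 10.1 CPM in Ybx1-KO. Both globins, singled out after their values were seen, placed control 2 nearer to the Ybx1-KO libraries than to the other controls. Not every erythroid marker set control 1 and control 3 apart from the Ybx1-KO libraries. Hbb-y, another embryonic globin, stood at 200, 558 and 137 CPM in the controls and 759, 234 and 126 CPM in Ybx1-KO. The part of these cells in the Hox differences was not tested.

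Neighbours and regulators of the Hox clusters were taken as a list of 13 genes, and the antisense and opposite-strand RNAs of the clusters as a list of 6. Of the 13, 11 were tested, and 10 were higher and 1 lower in Ybx1-KO, beside 61.3% of all genes tested that were higher. Of the 11, 2 had an unadjusted p below 0.05, 0 were called, and the median log2 fold change was 0.83. The 2 were Evx2 and Cdx1. Cdx1 had 31 counts in Ybx1-KO 3 and 0 in every other library. It could pass the filter only through Ybx1-KO, so its direction was set by the filter. Evx2, which lies beside Hoxd13, was like most Hox genes highest among the controls in control 2, at 0.911, 16.4 and 1.27 CPM in the controls and 43.4, 7.89 and 17.2 CPM in Ybx1-KO. Evx1, beside Hoxa13 and a factor of spinal interneurons, stood at 0.24, 8.00 and 0.66 against 13.3, 8.62 and 10.1 CPM, with all Ybx1-KO libraries above all controls. Cdx2, an activator of the posterior Hox genes, had 0, 0 and 7 counts in the controls and 0, 1 and 55 in Ybx1-KO, so it was measurable mainly in the library with the raised receptor signal.

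All 6 antisense and opposite-strand RNAs were tested and all 6 were higher in Ybx1-KO, 1 at an unadjusted p below 0.05 and 0 called, and the median log2 fold change was 1.23. They summed to 27.7, 172 and 44.6 CPM in the controls and to 181, 191 and 85.8 CPM in Ybx1-KO, the same order of libraries within each group as the Hox sums in CPM. Hoxb3os, the most abundant, stood at 17.9, 88.1 and 26.3 CPM in the controls and 99.1, 89.2 and 37.2 CPM in Ybx1-KO. Without the strand setting of the counting, it is not known how reads where these RNAs overlap Hox genes were assigned or set aside. Of read pairs counted on genes or set aside as ambiguous between genes, the ambiguous part differed by library. It was 5.67, 6.80 and 9.99% in the controls and 4.96, 17.7 and 3.70% in Ybx1-KO 1, 2 and 3.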

How the data were processed

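Per the labels and the study's methods, the authors mapped the stranded, paired-end reads of the 6 libraries, counted read pairs on genes with HTSeq 0.6.1p1 on a GENCODE annotation, and deposited the counts per gene symbol without normalization or pooling. The builds listed by the submitters are mm10 and GRCm38.p5. The aligner and the strand setting of the counting are not given in the sources used here. Libraries were run on either of a pair of sequencer models that the labels do not assign, and the first numbers in the titles, shared by control 1 and 2 and by Ybx1-KO 1 and 2, are not explained.

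Groups came from the genotype labels. Counts were scaled by TMM and tested with edgeR 4.0.16 (quasi-likelihood test, Benjamini-Hochberg adjustment over 21330 genes) in R 4.3.3, with no covariate. The filter kept genes whose mean FPKM exceeded 1 in at least 1 group, and a call needed an adjusted p under 0.05 together with a fold change over 1.5. Exon lengths and positions were from GENCODE M21 on GRCm38, to which 39 of 39 Hox symbols and 92.8% of all symbols matched. The exact permutation test was two-sided, on log2(CPM + 0.5). Tests were checked on simulated data. Libraries of a group differed beyond sampling noise (lowest chi-square divided by its degrees of freedom 51.1), and each was kept as a replicate. Alternatives were DESeq2 1.42.0, voom in limma 3.58.1, other scalings and filters, libraries left out or summed by title number, and a background subtraction. Depth set the limit of 3 counts, and the reads carried no molecular identifiers.

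The members and marker lists were chosen with earlier results of these data known. Values in every library are given, per band, for the 3 members with the highest mean FPKM and the 3 with the smallest unadjusted p, for members without overlap and for those that set the reach of a library. A few genes that meet this rule are not reported here, but stay in the counts and sums.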

Additional observations from a re-analysis of the deposited data

Results flagged for a closer look

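In Ybx1-KO 3, the olfactory, vomeronasal and taste receptor genes, which enter no Hox comparison, summed to 4691 CPM of the unscaled library total, above the 32.6 to 98.3 CPM of the control libraries. This library also had the most members of the groups 11 to 13 past 1 FPKM, 8 of 9, and 6 after a background estimated on the receptor genes was subtracted.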

How the results depend on the processing

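The count of called genes moved most with the processing. DESeq2 called 214 genes, 1 of them a Hox gene (Hoxb2), a fit without the filter called 193 with 2 Hox genes (Hoxb1 and Hoxb2), and libraries summed by title number gave 105 with 1 (Hoxb2). With each library left out in turn, called genes ran from 0 to 420 and Hox genes from 0 to 6, the 6 without control 2. The median Hox log2 fold change stayed positive, from 0.68 without control 1 to 2.39 without control 2. By band, with a library left out, it ran from 1.02 to 2.94 for the genes 1 to 4, from 0.43 to 2.27 for 5 to 8 and from 0.68 to 1.94 for 9 to 13, and for 9 to 13 it was 0.66 without the filter. Members above without overlap numbered 5 with upper quartile scaling (6.13% of the 21330 genes), 8 with total counts alone (6.00%), 2 without the filter (3.29%), where Hoxa3 overlapped, and 3 to 29 with a library left out. The median of all genes tested was 0.31 as reported, 0.40 with DESeq2 size factors, 0.53 with total counts alone, 0.15 with limma-voom, 0.70 without the filter and -0.16 without Ybx1-KO 3, and the Hox median lay above it in each, by 0.21 without the filter, 1.48 with limma-voom 0.38 without control 1, 0.58 without Ybx1-KO 2, 0.68 without control 3, 2.05 without control 2 and 0.86 to 1.53 in the others.

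Of 524 values of single members under alternatives, 483 kept direction and side of the threshold, 12 became called and 29, in 7 genes, changed sign. Hoxc12 turned positive, at 0.0725 with DESeq2 size factors, 0.074 with DESeq2, 0.12 with upper quartile scaling, 0.48 with total counts alone, 0.34 with limma-voom and 0.015 after background subtraction. Hoxd10 turned positive, at 0.0805 with DESeq2 size factors, 0.0804 with DESeq2, 0.0378 with upper quartile scaling, 0.23 with total counts alone and 0.11 with limma-voom. Hoxc13 turned negative without the filter (-0.0211) and with summed libraries (-0.35), and Hoxd13 with limma-voom (-0.0181). With a library left out, the log2 fold change ran from -0.23 to 2.76 for Hoxa6, -0.75 to 2.27 for Hoxc8, -1.13 to 1.68 for Hoxc12, -0.89 to 1.25 for Hoxc13, -0.061 to 1.33 for Hoxd8, -0.31 to 0.61 for Hoxd10 and -0.80 to 2.78 for Hoxd13. The cause of these changes was not tested.

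Members reached in control 1 numbered 25 at 0.5 FPKM and 9 at 2 FPKM, and in control 3 14 at 2 FPKM. As a share of FPKM, the mean of genes 1 to 4 in Ybx1-KO was 29.0% and that of genes 5 to 8 in control 50.5%. No paired analysis was possible because the groups share fewer than 2 replicate numbers in the titles. In Ybx1-KO 3, 3 counts equal 0.426 CPM on the TMM scale, which limits statements on the genes 11 to 13.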
